A study of Mus musculus with 3 samples.

Results

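The genes described here encode effector molecules of cytotoxic lymphocytes, and they were followed in the T cells that were collected together with the epithelium of the mouse small intestine. They were taken by symbol as a fixed set of genes known from cytotoxic T cells, chosen with earlier results of these data known, and number 10 of the 31053 genes in the count tables. They comprise the granule genes Gzma, Gzmb, Prf1 and Nkg7, the death ligand gene Fasl, the receptor genes Klrd1, Klre1 and Cd160, the chemokine gene Ccl5 and the surface protein gene Cd7. All 10 were found in the tables under unique symbols. The samples were 3 single-cell libraries, 1 for each of duodenum, jejunum and ileum, of C57BL/6N wildtype (WT) mice. Each pooled the cells of 3 untreated male mice aged 12 weeks. The study describes 3 such mice and no separate set per segment. The libraries thus appear to share animals and are then not independent replicates. Epithelial cells were shaken off the tissue in EDTA and DTT, and live cells that excluded propidium iodide were sorted without any gate for a cell type. The labels name the cells intestinal epithelial cells, and the protocol says that immune cells of the epithelium came with them. With 1 pooled library per segment, values of the segments are given side by side and were not tested.

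Intraepithelial T cells sit between enterocytes and can kill infected or stressed epithelial cells. They do so by releasing granules, in which perforin opens a path for granzymes into the target cell, or by presenting Fas ligand to the receptor Fas. Receptors of the natural killer (NK) cell type set the threshold of this response, and in the small intestine a large part of these cells carries the γδ T cell receptor or the CD8αα homodimer in place of the CD8αβ heterodimer of conventional cytotoxic T cells.

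T cell-like clusters, named from CD3, T cell receptor and other T cell markers and built without the 10 genes, held 1635 of the 16686 cells that passed the study's filters (called T cells in what follows). The duodenal library held 65, the jejunal one 166 and the ileal one 1404. Cells with a UMI (unique molecular identifier, 1 counted transcript) of Trdc, the constant chain of the δ receptor, and none of Cd8b1, the CD8β chain, numbered 25, 84 and 532 in these libraries and are called Trdc-positive. Cd8b1-positive cells without Trdc numbered 4, 17 and 345. A further 21, 44 and 344 cells had neither but had a UMI of Cd3e and are called other Cd3e-positive cells. Left out of these classes were 31 cells with UMIs of both Trdc and Cd8b1 and 188 cells with none of the 3 genes.

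T cell markers were present in each class. Summed over the libraries, Cd3g was at 29.2 UMIs per 10000 UMIs in Trdc-positive cells, 16.3 in Cd8b1-positive and 18.4 in other Cd3e-positive cells. Genes of the αβ receptor were widely read in Trdc-positive cells too, with Trac in 51.2% of them, Trbc2 in 88.3% and Trbc1 in 68.8%, against 77.6%, 88.5% and 57.9% of Cd8b1-positive cells. The class is therefore named by its UMIs and not as γδ T cells. Itgae, the αE integrin that holds lymphocytes to epithelial E-cadherin, was found in 81.0% of Trdc-positive cells (95% exact binomial interval 77.7 to 83.9%), in 74.3% of Cd8b1-positive cells (69.5 to 78.7%) and in 46.9% of other Cd3e-positive cells (42.0 to 51.9%). Among the other Cd3e-positive cells it was found in 72.0% of those with a Cd8a UMI and in 25.5% of those without. The NK cell receptor gene Ncr1 was at 0.0848, 0 and 0.0396 in the 3 classes and at 2.19 in the 188 cells with none of the class genes. Reads cannot place a cell within the epithelium, and the word intraepithelial rests on the protocol.

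RNA of enterocytes was present in each class. The 13 enterocyte markers summed to 143, 118 and 109 UMIs per 10000 in the Trdc-positive cells of the duodenum, jejunum and ileum, to 42.5 and 173 in the Cd8b1-positive cells of jejunum and ileum and to 191, 96.0 and 109 in other Cd3e-positive cells, against 841 in enterocyte-like cells. No marker of the list was at 0 in those sums. The 11 NK and innate lymphoid markers summed to at most 2.28 in Trdc-positive, 3.78 in Cd8b1-positive and 6.17 in other Cd3e-positive cells, and of the receptor genes of NK cells among them, Klra4 and Klra8 were at 0 in all of the 8 sums tested except the ileal Trdc-positive one. Klra7 was at 0.109, 0.0721 and 0.205 in Trdc-positive, Cd8b1-positive and other Cd3e-positive cells with the libraries summed, and Klrb1c at 0.173, 0.0262 and 0.284. The part of enterocyte RNA and of NK and innate lymphoid cells in the differences between the classes was not tested. Counts of calls without the T cells richest in enterocyte UMIs are given among the alternatives below.

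The 10 genes were read mainly from T cells, a pattern for which they were chosen and which is given here without a test. Between 90.7% of the UMIs (Klrd1) and 93.5% (Ccl5) counted in all kept cells lay in the T cell clusters, which held 9.80% of the cells. With the libraries summed, all 10 had their highest level in T cells. In the jejunum alone, 3 cells of an unnamed cluster described below had Gzma at 108% of the T cell level. In T cells, Ccl5 was at 132 UMIs per 10000 and Gzma at 103, Gzmb at 18.7, Cd7 at 17.6, Nkg7 at 14.6, Klrd1 at 7.22, Cd160 at 5.16, Fasl at 1.53, Prf1 at 0.805 and Klre1 at 0.550. The 3′ library counts each transcript once whatever its length, so the order needs no correction for length. Together the 10 genes made up 3.02% of all UMIs of T cells, and Gzma and Ccl5 alone gave 78.1% of that.

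Enterocyte-like cells, which should lack these genes, had low levels of them, and their source was not tested. Gzma was at 0.0136 UMIs per 10000 in duodenal, 0.066 in jejunal and 0.298 in ileal enterocyte-like cells, and the share of T cells among kept cells in those libraries was 1.53%, 3.81% and 17.4%. As a percentage of the T cell level of the same library the genes were not alike in duodenum and jejunum. Gzma was at 0.012% and Cd160 at 0.142% in the duodenum, and Gzma at 0.0458% and Fasl at 0.133% in the jejunum. In the ileum, which held most of these UMIs, the genes lay closer together, from 0.261% (Prf1) to 0.52% (Klre1), with Gzma at 0.305%. Each cell was then thinned to 800 UMIs, since the median depth was 3823 UMIs in T cells and 9914.5 in enterocyte-like cells. A Gzma UMI was left in 49.7% of T cells (47.2 to 52.1%) and 1.38% of enterocyte-like cells (1.19 to 1.60%). For Prf1 the shares were 6.79% and 0.00789%. For Klre1 they were 3.55% and 0 of 12672 cells, which allows a share of up to 0.0291% with a UMI at this depth. Before thinning, 15 Klre1 UMIs were counted in these enterocyte-like cells. Without thinning, a Gzma UMI was found in 56.6% of T cells and 9.57% of enterocyte-like cells.

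**Figure D1:**
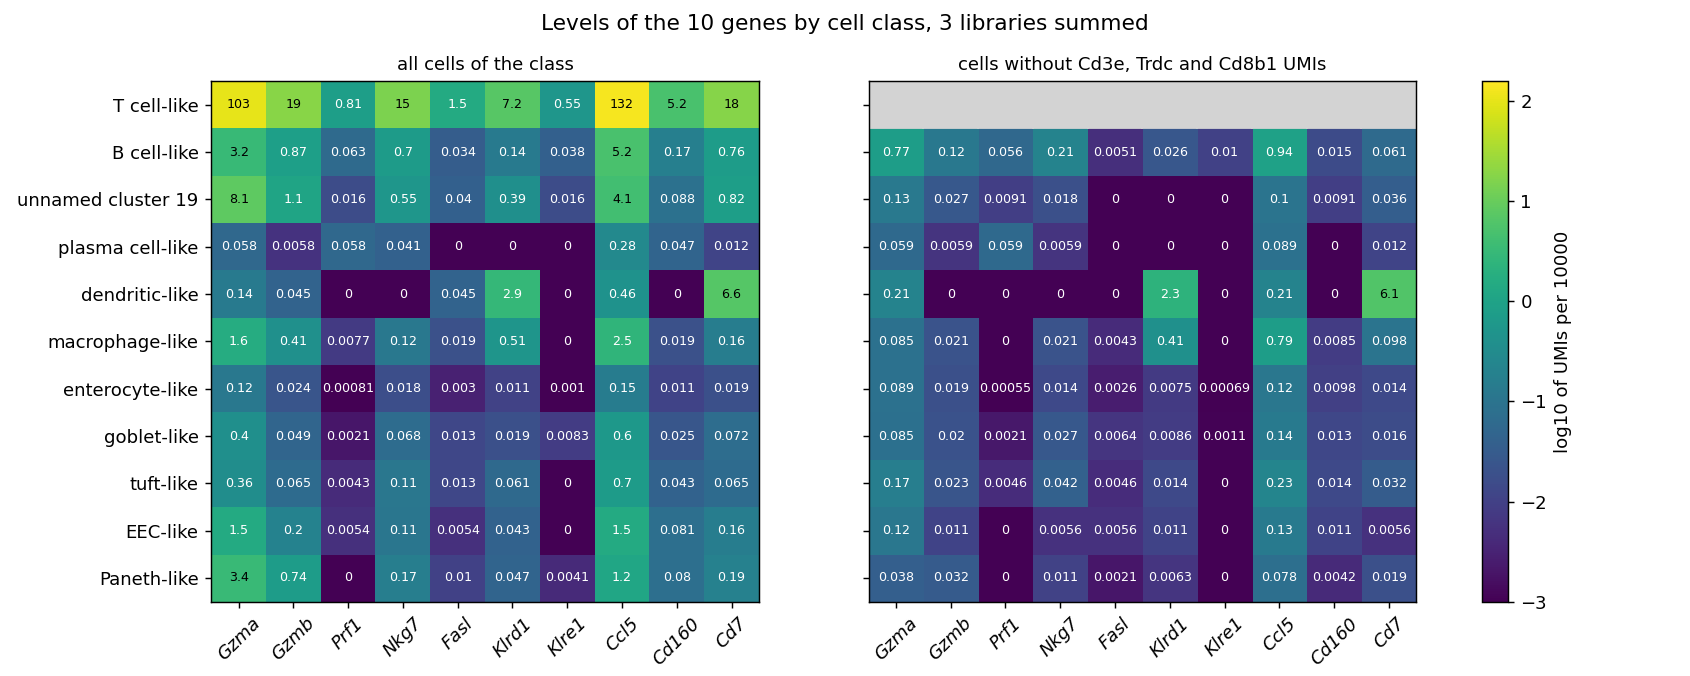
Levels of the 10 genes (columns, UMIs per 10000 with the 3 libraries summed, colour on a log10 scale with values of 0.001 and under drawn as 0.001) in each cell class (rows), for all cells of the class and for those without UMIs of Cd3e, Trdc and Cd8b1; grey marks T cells, which are not shown there. The T cell row is the highest for every gene, and Cd7 (6.60) and Klrd1 (2.91) stand out in the small dendritic-like cluster.

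Higher levels in other classes went in most classes with cells that also held UMIs of T cell genes. In B cell-like cells Gzma was at 3.20 in all 526 cells and at 0.767 in the 505 without a UMI of Cd3e, Trdc or Cd8b1. In Paneth-like cells it was at 3.41 in all 248 cells and at 0.0379 in the 238 without such a UMI, and in enteroendocrine (EEC)-like cells at 1.48 in 169 cells and 0.117 in 164. When clustered at a resolution of 1.2, 224 of the Paneth-like cells were named crypt and cycling. An unnamed cluster of 88 cells led by Ms4a1, a B cell gene, had 8.07, of which 3 jejunal cells gave 635 of 1013 UMIs, with 2.07 in its 79 ileal cells. Its 78 cells without such a UMI had 0.127. Doublets were not removed, and whether such cells are doublets was not tested.

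Some levels were kept in cells without such UMIs. One case was a cluster of 26 dendritic-like cells led by Siglech, a gene of plasmacytoid dendritic cells. There Cd7 was at 6.60 UMIs per 10000 (5.57 to 7.77) and Klrd1 at 2.91 (2.24 to 3.72), while Gzma was at 0.137 and Prf1, Nkg7, Klre1 and Cd160 had 0 UMIs. In the 11 of these cells without UMIs of the class genes, Cd7 was at 6.07 and Klrd1 at 2.30. By library, Cd7 there was at 1.78 in 3 duodenal, 5.42 in 6 jejunal and 8.05 in 17 ileal cells. Klrd1 was also at 0.406 in macrophage-like cells without the class genes, against 0.00752 in such enterocyte-like cells. In 87 plasma cell-like cells Prf1 was at 0.0583 (0.028 to 0.107), which is 7.24% of its T cell level, while Gzma was at 0.0566% of its own and Klrd1 had 0 UMIs. This rests on 10 Prf1 UMIs, 7 of them duodenal, 3 ileal and 0 jejunal, and all 10 lay in cells without UMIs of the class genes.

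Within T cells, Gzma, Gzmb, Klrd1, Klre1 and Cd7 were higher in Trdc-positive than in Cd8b1-positive cells, and Gzmb, Prf1, Nkg7, Klrd1 and Ccl5 were higher in them than in other Cd3e-positive cells. With the libraries summed, Trdc-positive cells gave 4.00% of their UMIs to the 10 genes, Cd8b1-positive cells 2.24% and other Cd3e-positive cells 1.91%. In the jejunum the order of the last 2 was reversed, with 3.73%, 2.21% and 3.21%. Other Cd3e-positive cells had 0.917% in the duodenum and 1.82% in the ileum. For tests, UMIs were summed per library and class in sums of at least 10 cells, so that the 4 Cd8b1-positive cells of the duodenum did not enter. The Cd8b1-positive class thus has 2 sums, and 1 where the jejunum or the ileum library is left out, which is then assumed to vary like the others. The 8 sums were compared in edgeR with the library as a block (an adjusted p under 0.05 over all 5426 genes tested is a call). All 10 genes passed the filter on low counts. Against Cd8b1-positive cells, 5 of the 10 were higher in Trdc-positive cells, where 1.47% of all genes tested were called higher and 1.29% lower, and 0 were lower, also at an unadjusted p under 0.05 and in DESeq2. Against other Cd3e-positive cells, 5 were higher, beside 0.682% of all genes called higher and 1.51% lower, and 0 were lower by the same counts. Between Cd8b1-positive and other Cd3e-positive cells, 2 were lower in the former, beside 1.22% of all genes called lower and 0.276% higher, and 0 were higher in edgeR or DESeq2. In DESeq2 0 were lower, and at an unadjusted p under 0.05 4 were higher and 3 lower. Shares of all genes, here and below, are those of edgeR at an adjusted p under 0.05. None are given at the unadjusted threshold or in DESeq2, so that counts there have no background beside them.

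**Figure D2:**
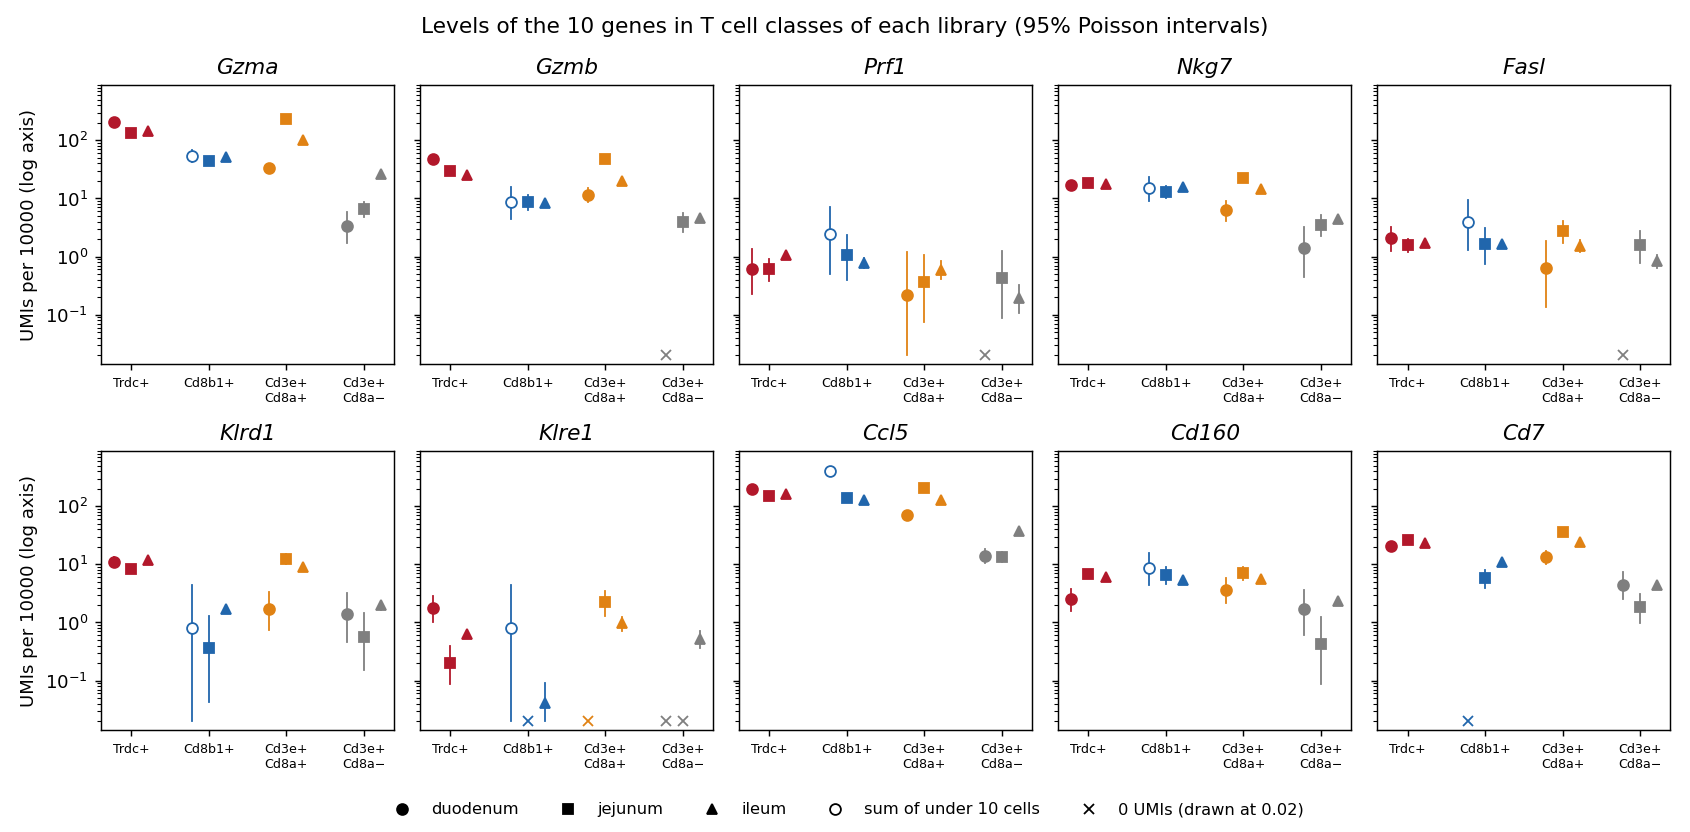
Levels (UMIs per 10000 on a log axis) of each gene in the T cell classes of the 3 libraries, with 95% Poisson intervals; the other Cd3e-positive cells are split by a UMI of Cd8a, the open symbol is the sum of 4 duodenal Cd8b1-positive cells, and crosses are 0 UMIs. Gzma, Gzmb, Klrd1 and Cd7 lie lower in Cd8b1-positive than in Trdc-positive cells of jejunum and ileum, and Cd8a-negative cells are lowest for most genes.

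The median log2 fold change of the 10 was 0.99 for Trdc-positive against Cd8b1-positive cells and 1.07 against other Cd3e-positive cells, beside a median of 0.00 over all genes tested in both. For Cd8b1-positive against other Cd3e-positive cells it was -0.06, with members on both sides of 0. The calls depended on the pairing of classes within libraries and on the tool. Without the library block 1 of the first 5 and 0 of the second 5 were called. In DESeq2, which kept the library in its model, 3 and 0 were.

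**Figure D3:**
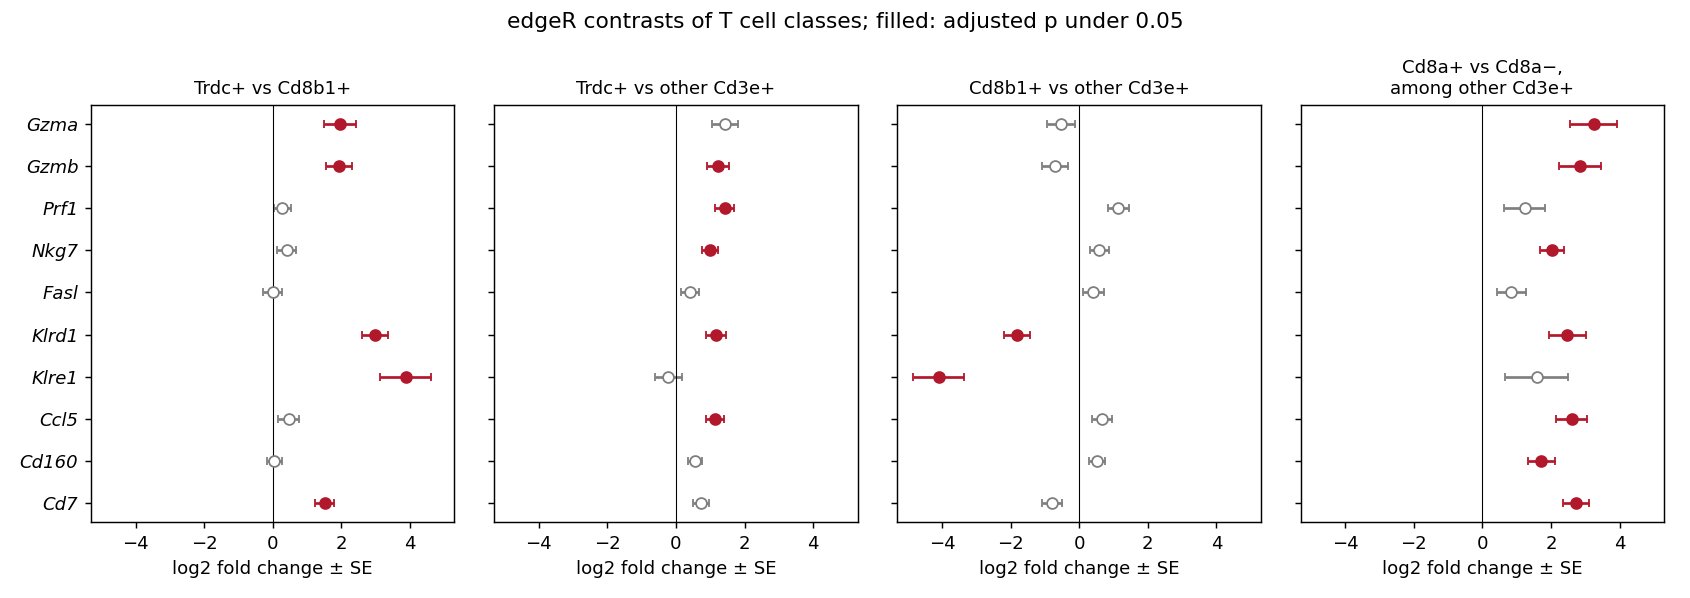
Log2 fold changes with standard errors from edgeR for the 10 genes in 4 comparisons of T cell classes; filled symbols have an adjusted p under 0.05. Klrd1 and Klre1 are furthest from 0 in both comparisons with Cd8b1-positive cells, and 7 of the 10 are filled in the comparison by Cd8a.

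Gzma and Gzmb encode the serine proteases granzyme A and granzyme B, a tryptase and an enzyme that cuts after aspartate. Gzma lies on chromosome 13 (chr13:113093825-113100981, minus strand, GRCm38) and Gzmb on chromosome 14 (chr14:56258838-56262260, minus strand). Prf1, on chromosome 10 (chr10:61297833-61304680, plus strand), encodes perforin. Since these genes form the core of the killing machinery, the 250 bases before their RefSeq transcription starts (GRCm38.p6) are shown 5′ to 3′. Capitals mark matches, on either strand and without overlap, to the Runx motif TGTGGT (reverse ACCACA), the T-box motif AGGTGT (reverse ACACCT) and the AP-1 motif TGANTCA, which bind families of factors that act in T cells:
Gzma (chr13:113100982-113101231, minus strand): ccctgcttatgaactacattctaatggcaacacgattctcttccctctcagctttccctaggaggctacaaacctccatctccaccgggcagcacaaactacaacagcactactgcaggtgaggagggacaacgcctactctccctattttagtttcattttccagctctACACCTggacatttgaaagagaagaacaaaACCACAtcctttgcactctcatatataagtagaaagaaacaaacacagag
Gzmb (chr14:56262335-56262584, minus strand): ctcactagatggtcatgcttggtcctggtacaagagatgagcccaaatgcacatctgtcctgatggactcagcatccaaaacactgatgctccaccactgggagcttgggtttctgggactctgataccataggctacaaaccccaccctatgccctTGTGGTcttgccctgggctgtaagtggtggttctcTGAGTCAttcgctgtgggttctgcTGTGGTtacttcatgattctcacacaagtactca
Prf1 (chr10:61297586-61297835, plus strand): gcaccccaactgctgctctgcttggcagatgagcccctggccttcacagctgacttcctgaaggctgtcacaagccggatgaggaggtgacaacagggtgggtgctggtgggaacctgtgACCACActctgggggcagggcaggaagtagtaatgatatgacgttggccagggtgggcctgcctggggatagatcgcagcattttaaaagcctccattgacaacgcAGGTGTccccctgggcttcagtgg

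Each of the 3 windows held the Runx motif, and those of Gzma and Prf1 also the T-box motif, 80 and 24 bases before the start. Gzmb alone had the AP-1 motif, which began 58 bases before the start. These distances count from the RefSeq starts. That of Gzmb lies 74 bases before the nearest transcript start in GENCODE M21. For Prf1 the starts differ by 3 bases and for Gzma by 0. Over the 9 windows found for 7 of the 10 genes, 7 held the Runx motif, 3 the T-box motif and 1 the AP-1 motif. Among all 32841 windows of this length in the RefSeq table the shares were 14%, 11.8% and 6.75%. A match describes these letters only.

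Gzma was at 208 UMIs per 10000 in duodenal, 132 in jejunal and 146 in ileal Trdc-positive cells. In Cd8b1-positive cells it was at 44.4 (jejunum) and 50.8 (ileum). Other Cd3e-positive cells had 20.3, 127 and 59.9. Trdc-positive cells were thus above Cd8b1-positive cells without overlap, while the jejunal sum of other Cd3e-positive cells came close to the Trdc-positive one. The log2 fold change of Trdc-positive over Cd8b1-positive cells was 1.96 ± 0.46 (SE, adjusted p = 0.0162). Over other Cd3e-positive cells it was 1.43 ± 0.39 and missed the threshold (adjusted p = 0.0559). The first call was lost without the ileum library, where the value was 2.66, and the second comparison was called without the jejunum library, at 2.26. That second value was 0.60 without the duodenum library, and by library the log2 ratio of the levels was 3.36 in the duodenum, 0.05 (-0.02 to 0.13) in the jejunum and 1.28 in the ileum.

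Gzmb followed Gzma at a lower level. It was at 48.1, 29.7 and 25.8 UMIs per 10000 in Trdc-positive cells of the duodenum, jejunum and ileum, at 8.63 and 8.46 in Cd8b1-positive cells of jejunum and ileum and at 6.56, 27.9 and 11.3 in other Cd3e-positive cells. The Trdc-positive sums lay above all Cd8b1-positive sums, and within each library above the sum of other Cd3e-positive cells. Over the latter the log2 ratio was 2.87 in the duodenum, 1.19 in the ileum and only 0.09 (-0.07 to 0.25) in the jejunum. The log2 fold change was 1.93 ± 0.39 over Cd8b1-positive cells (adjusted p = 0.00427) and 1.23 ± 0.32 over other Cd3e-positive cells (adjusted p = 0.0432). The second value was 0.60 without the duodenum library and 1.40 without the ileum library, and passed the threshold in neither.

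Prf1 was read at a far lower level than the granzymes it works with. Its levels were 0.622, 0.599 and 1.08 UMIs per 10000 in Trdc-positive cells of the 3 libraries, from 6, 24 and 265 UMIs. Cd8b1-positive cells had 1.08 and 0.782 and other Cd3e-positive cells 0.121, 0.394 and 0.367, the last from 1, 6 and 47 UMIs. So Trdc-positive and Cd8b1-positive sums overlapped, and those of other Cd3e-positive cells lay below both. By library, the interval of the log2 ratio of Trdc-positive to other Cd3e-positive cells included 0 in the duodenum (-0.70 to 5.41) and jejunum (-0.69 to 1.89). Trdc-positive cells were higher than other Cd3e-positive cells by a log2 fold change of 1.42 ± 0.27 (adjusted p = 0.00291), a call lost without the ileum library, which holds most of the UMIs (1.03). Cd8b1-positive cells were above other Cd3e-positive cells by 1.14 ± 0.30 and missed the threshold (adjusted p = 0.0670). Without the jejunum library, where the ileal sum alone stands for Cd8b1-positive cells, the value was 1.17 and passed.

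Nkg7 encodes a membrane protein of cytotoxic granules that takes part in their release. Its level was nearly even between Trdc-positive cells (17.0, 18.1 and 17.4 UMIs per 10000 in duodenum, jejunum and ileum) and Cd8b1-positive cells (13 in jejunal and 15.8 in ileal cells). Other Cd3e-positive cells had 4.13, 13.9 and 8.94. Trdc-positive cells were higher than these by a log2 fold change of 0.99 ± 0.24 (adjusted p = 0.0249), and the call was lost without the duodenum library (0.66) and without the ileum library (1.12).

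Fasl, the gene of Fas ligand, was read at a low level in each class. It was at 2.07, 1.57 and 1.69 UMIs per 10000 in Trdc-positive cells, 1.62 and 1.65 in Cd8b1-positive cells of jejunum and ileum, and 0.364, 2.17 and 1.14 in other Cd3e-positive cells. The ranges of the classes overlapped, and no comparison of Fasl passed the threshold. In the duodenum the value of other Cd3e-positive cells came from 3 UMIs.

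Klrd1 and Klre1 are neighbours on chromosome 6 (chr6:129591782-129598775 and chr6:129577905-129585827, plus strand) in the gene complex of NK cell receptors. Klrd1 encodes CD94, which pairs with NKG2 chains to bind the class Ib molecule Qa-1, and Klre1 encodes a related lectin-like receptor. Klrd1 was at 11.0, 8.36 and 12.0 UMIs per 10000 in Trdc-positive cells of the duodenum, jejunum and ileum. Cd8b1-positive cells had 0.36 (jejunum) and 1.74 (ileum), and other Cd3e-positive cells 1.58, 6.89 and 5.09. The 3 classes did not overlap in jejunum and ileum, with Cd8b1-positive cells lowest. Trdc-positive cells were higher than Cd8b1-positive cells by a log2 fold change of 2.98 ± 0.38 (adjusted p = 2.13e-05), a call kept in all 19 alternatives, and than other Cd3e-positive cells by 1.16 ± 0.29 (adjusted p = 0.03). Cd8b1-positive cells were lower than other Cd3e-positive cells, at -1.82 ± 0.38 (adjusted p = 0.00929). Both of these calls were lost in 5 of 19 alternatives, DESeq2 and the fit without the library block among them, where the values ranged over all alternatives from 0.79 to 2.18 and from -3.82 to -1.05.

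With the libraries summed, Klre1 was the lowest of the 10 genes in T cells and the one most nearly lacking in a class. In duodenal T cells Prf1 was lower, at 0.616 UMIs per 10000 against 0.792 for Klre1. In Cd8b1-positive cells 0 UMIs were counted in the jejunum and 6 in the ileum (0.0412 UMIs per 10000, 0.0151 to 0.0896). Trdc-positive cells had 1.76, 0.20 and 0.645 and other Cd3e-positive cells 0 in the duodenum, 1.18 and 0.71. In the ileum both classes lay above Cd8b1-positive cells. In the jejunum the 0 UMIs of Cd8b1-positive cells allow up to 0.664, which is above the Trdc-positive level there. The fitted log2 fold change of Trdc-positive over Cd8b1-positive cells was 3.88 ± 0.74 (adjusted p = 0.0023), and that of Cd8b1-positive over other Cd3e-positive cells was -4.10 ± 0.75 (adjusted p = 0.00266). With so few UMIs these sizes depend on the prior count of the fit, and both calls were lost without the ileum library (6.03 and -6.27).

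Cd160 encodes a receptor that binds the herpesvirus entry mediator and class I molecules. It was not called between Trdc-positive and Cd8b1-positive cells (log2 fold change 0.04 ± 0.22), where Klrd1 and Klre1 were. Its levels were 2.49, 6.94 and 6.08 UMIs per 10000 in Trdc-positive cells, 6.66 and 5.36 in Cd8b1-positive cells of jejunum and ileum and 2.79, 4.00 and 3.76 in other Cd3e-positive cells. Trdc-positive and Cd8b1-positive values overlapped. The log2 fold change over other Cd3e-positive cells was 0.56 ± 0.20 for Trdc-positive cells (adjusted p = 0.252) and 0.51 ± 0.23 for Cd8b1-positive cells (adjusted p = 0.661), so that neither passed. The first passed without the duodenum library, at 0.72.

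Ccl5 encodes a chemokine that is stored in cytotoxic T cells and attracts other leukocytes. It was the most abundant of the 10 genes in both the Trdc-positive cells of jejunum and ileum (149 and 166 UMIs per 10000, with 195 in the duodenum) and the Cd8b1-positive cells there (139 and 126). Other Cd3e-positive cells had 46.4, 117 and 77.6. Trdc-positive cells were higher than these by a log2 fold change of 1.14 ± 0.26 (adjusted p = 0.0172), and the call was lost without the ileum library (1.21). The difference of Cd8b1-positive from other Cd3e-positive cells, 0.67 ± 0.29, did not pass (adjusted p = 0.6).

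Cd7 encodes an immunoglobulin-type surface protein of T and NK cells. Trdc-positive cells had 20.6, 26.0 and 23.7 UMIs per 10000, Cd8b1-positive cells 5.76 (jejunum) and 10.8 (ileum), and other Cd3e-positive cells 9.47, 20.4 and 13. Trdc-positive sums were above the others in each library. Over Cd8b1-positive cells the log2 fold change was 1.52 ± 0.28 (adjusted p = 0.00199), and the call was lost without the jejunum library (1.13). Over other Cd3e-positive cells it was 0.73 ± 0.23 (adjusted p = 0.140), which passed without the jejunum library (0.97). Cd8b1-positive cells were below other Cd3e-positive cells by -0.79 ± 0.28, which did not pass (adjusted p = 0.341) but did without the duodenum library (-0.87). Over all 19 alternatives this value ranged from -1.69 to 0.09, with 1 call.

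The other Cd3e-positive class was a mixture, and a UMI of Cd8a parted it. Of its 409 cells, 189 had Cd8a without Cd8b1, and 220 had no Cd8a, of which 66 had a UMI of Cd4. Cd8a without Cd8b1 is the reading that a CD8αα cell gives, but also a cell whose Cd8b1 transcripts were missed. Trdc transcripts may have been missed as well, and 73.2% of Trdc-positive cells had a Cd8a UMI. In the fit with this split (2250 genes tested), 7 of the 10 genes were higher in the Cd8a-positive cells, beside 2.27% of all genes called higher and 2.84% lower, and 0 were lower in edgeR, at an unadjusted p under 0.05 or in DESeq2, which called the same number higher. A cell that was sequenced more deeply is more likely to show a Cd8a UMI. The median depths of Cd8a-positive and Cd8a-negative cells were 1885 and 3515.5 UMIs in the duodenum, 3870.5 and 2979.5 in the jejunum and 3585 and 3425 in the ileum, and the part of depth in the calls was not tested.

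Gzma had the largest of these values in the main comparison, though not without the jejunum library (2.22, against 2.46 for Gzmb). It was at 33.3, 233 and 102 UMIs per 10000 in Cd8a-positive cells of the duodenum, jejunum and ileum and at 3.35, 6.49 and 26.8 in Cd8a-negative cells, with no overlap (log2 fold change 3.24 ± 0.69, adjusted p = 0.0154). Gzmb was at 11.6, 48.7 and 19.9 against 0, 3.95 and 4.58 (2.84 ± 0.61, adjusted p = 0.0155), and Cd7 at 13.3, 36.5 and 23.9 against 4.47, 1.83 and 4.48 (2.73 ± 0.38, adjusted p = 0.00147). In each of these genes every Cd8a-positive sum was above every Cd8a-negative one. The other calls were Ccl5 (2.60 ± 0.44), Klrd1 (2.48 ± 0.53), Nkg7 (2.04 ± 0.35) and Cd160 (1.72 ± 0.39). Prf1, Fasl and Klre1 did not pass. Of the 7, 2 were called without the jejunum library and 1 without the ileum library, where the log2 fold changes of Gzma were 2.22 and 4.45. Calls lost without the jejunum library were Gzma, Nkg7 (1.73), Klrd1 (1.67), Ccl5 (1.98) and Cd160 (1.23). Those lost without the ileum library were Gzmb (3.75), Nkg7 (2.40), Klrd1 (2.84), Ccl5 (3.23), Cd160 (2.49) and Cd7 (2.96).

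The Cd8a-positive cells were also set against Trdc-positive cells, and 0 of the 10 genes were called in edgeR, 0 at an unadjusted p under 0.05 and 0 in DESeq2, beside 0.178% of all genes called higher and 0.0889% lower. The standard errors of these log2 fold changes ran from 0.31 (Nkg7) to 0.79 (Klre1), so that the missing calls do not show equal levels. The Cd8a-positive cells may include some whose Trdc transcripts were missed, and their part in this comparison was not tested. Klrd1 was lower in Cd8b1-positive cells than in these Cd8a-positive cells (-2.74 ± 0.58, adjusted p = 0.0456), beside 0.711% of all genes called lower and 0.4% higher, and this call was lost without the jejunum (-1.90) or the ileum library (-4.39). At an unadjusted p under 0.05, for which no share of all genes is given, Gzmb, Klre1 and Cd7 were lower as well (-1.63 ± 0.65, -4.80 ± 1.28 and -1.61 ± 0.40, adjusted p = 0.597, 0.180 and 0.113). In the 66 cells with Cd4 and no Cd8a, the 10 genes gave 0.266% of UMIs, with Gzma at 8.99 and Klrd1 at 0.169 UMIs per 10000. Of the 266 Gzma UMIs, 263 came from 6 ileal cells, and Gzma was at 0.421 in the duodenum and 0.89 in the jejunum.

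Single cells of a class differed widely. In Trdc-positive cells the lower quartile of Gzma was 0, the median 89.4 and the upper quartile 278 UMIs per 10000, so that no Gzma UMI was counted in at least the lowest 25% of cells, which does not show that they lack the transcript. The 10% of cells with most Gzma held 34.7% of its UMIs there, 50.4% in Cd8b1-positive cells and 97.6% in the Cd8a-negative cells. In Trdc-positive cells Nkg7 was spread most evenly, with quartiles of 8.26, 16.1 and 24.3 and 25.9% of UMIs in the top 10% of cells. This did not hold in Cd8a-negative cells, where that share was 68.4% for Nkg7 and 57.7% for Fasl. Ccl5 had a median of 128 in Trdc-positive and 120 in Cd8b1-positive cells. Its upper quartiles were 257 and 196.

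**Figure D4:**
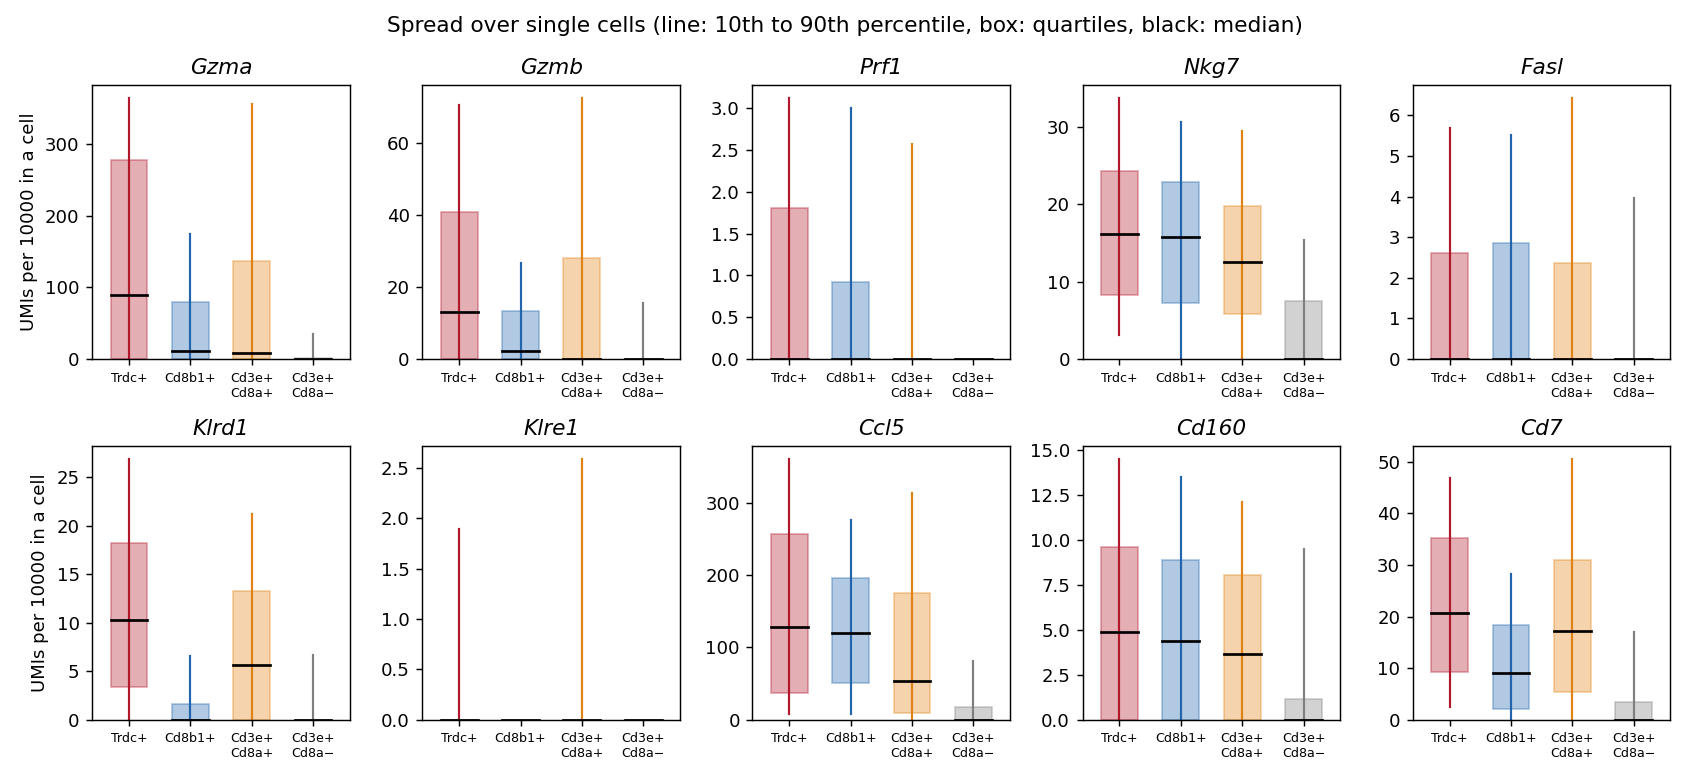
Spread of each gene over single cells (UMIs per 10000 in a cell, linear axes) in 4 T cell classes with the libraries pooled: line, 10th to 90th percentile; box, quartiles; black bar, median. The box for Gzma in Trdc-positive cells reaches from 0 to 278, while that for Nkg7 lies clear of 0.

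Both granzymes were read in the same cells. After thinning to 800 UMIs, Gzma was found in 394 of 641 Trdc-positive cells and Gzmb in 323, of which 320 (99.1%) also had Gzma. In Cd8b1-positive cells 113 of 128 cells with Gzmb had Gzma (88.3%). Gzma without Gzmb was more common, and 81.2% of Trdc-positive and 57.4% of Cd8b1-positive cells with Gzma also had Gzmb. Ccl5 was found in 570 Trdc-positive cells, of which 182 (31.9%) had no UMI of either granzyme. Of 842 T cells with a granzyme UMI at this depth, 91 had a Prf1 UMI. A median of 5 of the 10 genes was found in a Trdc-positive cell, 4 in a Cd8b1-positive cell and in a Cd8a-positive other cell, and 0 in a Cd8a-negative cell, where 114 of 220 cells (51.8%) had none. All of these shares hold for a depth of 800 UMIs. In cells thinned to 2000 UMIs, 165 of 706 T cells with a granzyme UMI had a Prf1 UMI. Of cells with Gzma at that depth, 92% of Trdc-positive and 69.9% of Cd8b1-positive ones also had Gzmb. A cell without a UMI may thus still hold the transcript.

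Along the intestine the values of Trdc-positive cells, the class with most cells in each library, were close between libraries for some genes and far apart for others. Between the lowest and the highest library, Nkg7 went from 17.0 to 18.1, Fasl from 1.57 to 2.07, Cd7 from 20.6 to 26.0, Ccl5 from 149 to 195 and Klrd1 from 8.36 to 12.0. Prf1 went from 0.599 to 1.08 and Klre1 from 0.20 to 1.76, the latter on 8 and 17 UMIs. The duodenal library had the highest Gzma and Gzmb (208 and 48.1) and the lowest Cd160 (2.49). There 24 of 25 Trdc-positive cells had a Gzma UMI at 800 UMIs per cell (96.0%, 79.6 to 99.9%), against 60.7% of jejunal and 60% of ileal ones. These 25 cells also had a higher median share of mitochondrial UMIs, 10.7% against 6.10% and 4.71%. In other Cd3e-positive cells all 10 genes were lowest in the duodenum and highest in the jejunum. The order did not hold throughout the split by Cd8a, as Prf1 in Cd8a-positive cells (0.215, 0.368 and 0.587 in duodenum, jejunum and ileum) and Gzma in Cd8a-negative cells (3.35, 6.49 and 26.8) were highest in the ileum. Segment and library cannot be told apart, and the segments appear to come from the same pooled mice.

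Other genes of the killing pathway were followed through lists. Of 13 other granzymes and granule proteins, 6 passed the filter, and Gzmc, Gzmd, Gzme, Gzmf, Gzmg, Gzmm and Gzmn were among those that did not. Gzmk, a granzyme of memory-type T cells, ran against Gzma and Gzmb between Trdc-positive and Cd8b1-positive cells, though not between Trdc-positive and other Cd3e-positive cells (0.81 ± 0.28, adjusted p = 0.207). It was at 2.70 and 1.34 UMIs per 10000 in Cd8b1-positive cells of jejunum and ileum and at 0.474 and 0.571 in Trdc-positive cells, with 1.55 in those of the duodenum (log2 fold change of Trdc-positive over Cd8b1-positive cells -1.49 ± 0.25, adjusted p = 0.000497). Fgl2 was higher in Trdc-positive cells than in Cd8b1-positive (1.55 ± 0.29) and other Cd3e-positive cells (0.95 ± 0.24). The list counts for Trdc-positive over Cd8b1-positive cells were 1 higher and 1 lower with a median of 0.31, beside 1.47% and 1.29% of all genes.

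Among 18 NK-type receptor and adaptor genes, 7 were tested. Against Cd8b1-positive cells, 5 of these were higher in Trdc-positive cells and 1 was lower (median 1.01), beside 1.47% and 1.29% of all genes. Against other Cd3e-positive cells 1 was higher, Cd96 (0.81 ± 0.21), and the median was 0.26, beside 0.682% of all genes called higher. Over Cd8b1-positive cells, the adaptor genes Fcer1g and Tyrobp, which carry signals of NK receptors, showed log2 fold changes of 4.28 ± 0.38 and 3.48 ± 0.35, and the receptor gene Klrb1a 3.86 ± 0.50. Fcer1g was at 14.7, 17.8 and 14.6 UMIs per 10000 in Trdc-positive cells and at 0 and 0.878 in Cd8b1-positive cells of jejunum and ileum. Cd244 (1.01 ± 0.27) and Cd96 (0.89 ± 0.24) were also higher than in Cd8b1-positive cells, while Cd226, a receptor for nectin-type ligands, was lower (-0.95 ± 0.24). Fcer1g, Tyrobp and Klrb1a were lower in Cd8b1-positive than in other Cd3e-positive cells as well (-3.60 ± 0.38, -3.22 ± 0.35 and -4.06 ± 0.52), the direction of Klrd1 and Klre1. Fcer1g and Tyrobp are also genes of myeloid cells, and their part in these values was not tested. The 8 macrophage markers summed to between 0 and 0.180 UMIs per 10000 in the tested sums, and the 7 dendritic markers to between 0 and 0.374, highest in jejunal Trdc-positive cells.

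Of 6 tested cytokine and death ligand genes, Ccl3, a chemokine, was higher in Trdc-positive cells than in Cd8b1-positive (1.05 ± 0.28) and other Cd3e-positive cells (1.54 ± 0.27), and Ltb, a membrane cytokine of the lymphotoxin family, was lower (-1.03 ± 0.25 and -1.05 ± 0.22). Ccl4 was higher in both Trdc-positive (1.79 ± 0.25) and Cd8b1-positive cells (2.24 ± 0.27) than in other Cd3e-positive cells. Among 11 tested transcription factor genes, Klf2, which keeps T cells in circulation, was lower in Trdc-positive cells than in Cd8b1-positive (-2.47 ± 0.30) and other Cd3e-positive cells (-2.65 ± 0.28), and so was Lef1 (-1.55 ± 0.37 and -2.31 ± 0.34). Tcf7 was lower in Trdc-positive than in other Cd3e-positive cells (-1.36 ± 0.29). Ikzf2 was higher in Trdc-positive than in Cd8b1-positive cells (2.61 ± 0.27). Runx3 was called only by Cd8a among other Cd3e-positive cells (1.13 ± 0.26). The 6 tested genes of granule release and the 6 of protease inhibitors and protection had medians of 0.21 and 0.15 for Trdc-positive over Cd8b1-positive cells. By Cd8a, the protease inhibitor gene Cst7 was higher (1.74 ± 0.30).

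The remaining calls of the lists were as follows. In Cd8b1-positive over other Cd3e-positive cells Gzmk (2.29 ± 0.29) and Cd226 (1.03 ± 0.26) were higher and Ikzf2 was lower (-2.41 ± 0.28). By Cd8a among other Cd3e-positive cells, the granule protein genes Ctsw (1.99 ± 0.35) and Fgl2 (1.91 ± 0.42) were higher in Cd8a-positive cells. So were Klrb1a (3.28 ± 0.65), Fcer1g (2.90 ± 0.60), Tyrobp (2.67 ± 0.60), Cd244 (2.18 ± 0.36) and Ccl4 (2.06 ± 0.39), while Tcf7 (-1.94 ± 0.47), Lef1 (-3.43 ± 0.72) and Klf2 (-3.82 ± 0.56), genes of naive and circulating T cells, were lower. In Cd8b1-positive over Cd8a-positive other cells Gzmk (1.95 ± 0.42) and Klf2 (2.78 ± 0.60) were higher and Klrb1a (-5.05 ± 0.76), Fcer1g (-4.77 ± 0.76), Tyrobp (-4.23 ± 0.73) and Ikzf2 (-2.60 ± 0.42) were lower. All of these are log2 fold changes with standard errors from edgeR at an adjusted p under 0.05.

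The receptors and substrates of these effectors were read from the epithelium as a description. In enterocyte-like cells Fas was at 0.272, 0.185 and 0.168 UMIs per 10000 in duodenum, jejunum and ileum, and its adaptor Fadd at 0.0989, 0.0852 and 0.0953. The initiator caspase gene Casp8 was at 1.33, 1.43 and 2.34. Gsdmd was at 2.40, 3.51 and 3.20. Gsdmc4 went from 0.000602 in the duodenum over 0.0221 to 0.161 in the ileum. Genes of the gasdermin family form pores in dying cells.

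Ligands of the receptors were also present. H2-T23, which encodes Qa-1, the ligand of CD94 with NKG2A, was at 3.28, 2.60 and 3.06 UMIs per 10000 in enterocyte-like cells of the 3 libraries and at 3.30, 3.25 and 3.23 in T cells. Sectm1b, of the family of Cd7 ligands, was at 3.08, 2.23 and 1.91 in enterocyte-like cells, and Sectm1a at 0.0995, 0.0698 and 0.0177. Tnfrsf14, a binding partner of Cd160, was low in both (0.00951 to 0.0135 in enterocyte-like cells). Cdh1, the E-cadherin gene, was at 2.10, 2.33 and 3.49, and Il15, a cytokine that sustains these T cells, at 0.381, 0.512 and 0.352. The stress ligand genes H60b and H60c had 0 UMIs in enterocyte-like cells and Raet1e at most 0.00327 UMIs per 10000. Of genes of Ccl5 receptors, Ccr1 was highest in macrophage-like cells, at 2.57. Ccr3 had 0 UMIs in T cells.

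**Figure D5:**
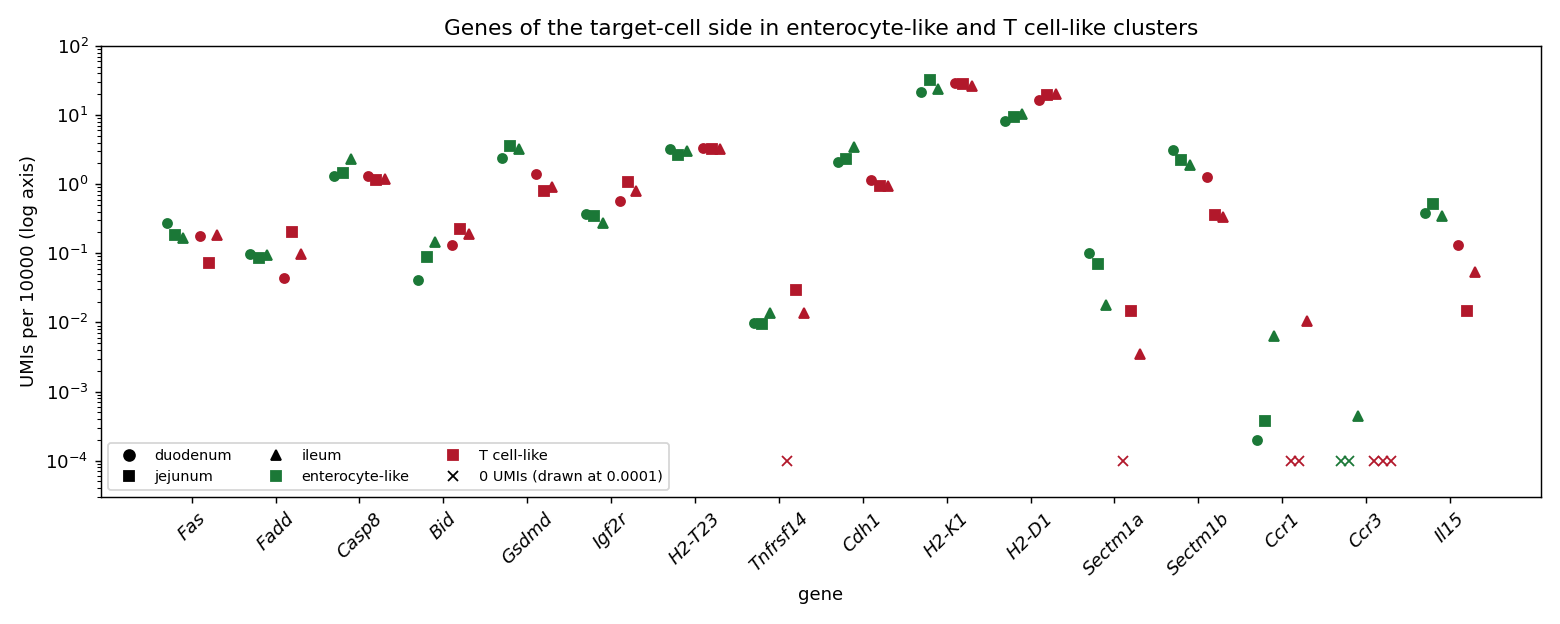
Levels (UMIs per 10000 on a log axis) of genes on the target side in enterocyte-like (green) and T cell-like (red) clusters, with 1 symbol per library and crosses for 0 UMIs. Casp8 lies between 1.33 and 2.34 in enterocyte-like cells, and H2-T23 lies at 2.60 to 3.30 in both.

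Likeness to the 10 genes was ranked over the 11 sums of T cell classes and libraries, which share libraries and cells' depth. The Pearson r with the mean of the standardised log2(CPM + 1) values of the 10 was highest for Lta4h (0.960), Rras (0.953), Sap18 (0.946), Cst7 (0.944) and Ccl3 (0.941), among 8812 genes. For the members themselves it went from 0.732 (Cd160) to 0.991 (Gzma). Over 28 sums of cell classes and libraries, where the difference between T cells and other cells leads, the highest were Cd3d (0.987), Trbc2 (0.968), Cxcr6 (0.966), Skap1 (0.966) and Cd3g (0.964). These values are a description of few and related sums.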

How the data were processed

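Single-cell RNA was sequenced by the authors with the 10x 3′ v3 chemistry, and the deposited files hold raw UMI counts per gene and cell barcode from Cell Ranger 3.0.2 on GRCm38 (mm10). The filters of the study's methods (between 800 and 50000 UMIs, between 200 and 6000 genes, no more than 40% of UMIs mitochondrial) left 4255 of 9501 barcodes in the duodenum, 4360 of 8139 in the jejunum and 8071 of 9595 in the ileum (57079945, 58186946 and 66148396 UMIs). No doublet caller was run. Barcodes shared between libraries were 21 among kept cells and 0 among T cells.

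Cells were clustered in Seurat 5.3.0 on 2000 variable genes without the 10 described here, with 30 components and a resolution of 0.8, and clusters were named from fixed markers. One T cell-like cluster of 410 cells has a median of only 1206 UMIs. Names may differ from those of the study. UMIs were summed per library and T cell class and compared in edgeR 4.0.16 (quasi-likelihood test, TMM, filter on low counts, library as a block, Benjamini-Hochberg adjustment), with the standard error as the absolute log2 fold change over the square root of F. DESeq2 1.42.0, other scalings, filters, class rules and leaving out each library were alternatives. The test was also tried on simulated data, but the outcome is not given here and no statement rests on it. Levels are UMIs per 10000 with exact Poisson intervals and shares have exact binomial ones, both for counting error only. With the library as a block, p-values measure how much the differences between classes vary from library to library. The fit estimates that spread in part from the other genes. The libraries appear to share animals, so that the p-values do not measure the spread between mice.

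The 10 genes and the lists were chosen with earlier results of these data known. All 10 are named, as are called genes of the lists and the 5 genes with the highest r. Promoter windows came from RefSeq (GRCm38.p6), with 7 of the 10 genes matched, and gene positions from GENCODE M21. Some genes of the lists are not reported here.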

Additional observations from a re-analysis of the deposited data

How the results depend on the processing

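The 20 called pairs of gene and comparison kept their call in 235 of 300 values under alternatives, lost it in 65 and reversed in 0. With the main count of genes higher in Trdc-positive than Cd8b1-positive cells at 5, DESeq2 gave 3, the fit without the library block 1, all kept cells with a Cd3e UMI 1 and leaving out a library 3 to 5. Against other Cd3e-positive cells the 5 became 0 in DESeq2, 0 without the block, 1 with sums of at least 3 cells, 2 at no more than 20% mitochondrial UMIs, 8 without the T cells richest in enterocyte UMIs, 9 with all kept cells with a Cd3e UMI and 1 to 7 without a library. For Cd8b1-positive over other Cd3e-positive cells, the 0 higher became 1 with no filter, 1 without the enterocyte-rich cells, 5 with all cells with a Cd3e UMI, 2 at 2 UMIs for a positive cell, 1 with a Cd3e UMI asked of all classes and 0 to 1 without a library, and the 2 lower became 0 in DESeq2, 0 without the block, 0 with sums of at least 3 cells, 1 with all cells with a Cd3e UMI and 1 to 5 without a library. By Cd8a the 7 became 5 without the block and 1 to 7 without a library, with a highest count of 8 over all 9 alternatives. For Cd8b1-positive against Cd8a-positive cells the 1 lower became 5 with no filter, 0 without the block and 0 to 5 without a library. Cd7 in Cd8b1-positive over other Cd3e-positive cells turned from -0.79 to 0.09 with all cells with a Cd3e UMI. Of the 29 pairs of gene and comparison at an unadjusted p of 0.05 or more, 20 changed sign under some alternative and 6 were called in one, Gzma and Gzmb of that comparison among both. Alternatives chosen after seeing the data were leaving out the T cell cluster of fewest UMIs (2 higher in Trdc-positive than other Cd3e-positive cells, and 1 lower in Cd8b1-positive cells), no integration (8 and, for Cd8b1-positive cells, 1 higher) and a resolution of 1.2. The cause of these shifts was not tested. The number of all genes called shifted between alternatives too. It is given below only as a range and not for each setting, so that the counts above have no background of their own. Without the jejunum or the ileum, the Cd8b1-positive arm has 1 sum, assumed to vary like the others. All genes called ranged from 41 to 334 around 150 for Trdc-positive against Cd8b1-positive cells, from 39 to 1495 around 119 against other Cd3e-positive cells, from 9 to 689 around 81 between the other two, and from 14 to 248 around 115 by Cd8a. The main fit pairs classes by library, and the labels give no replicate numbers for another pairing. The duodenum holds few T cells, and 1 library per segment limits every comparison along the intestine.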
